A study of Mus musculus with 435 samples.

Results

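The effect of a high-fat against a low-fat diet on liver RNA of A/J mice was examined at weeks 5, 6 and 7 of a longer diet study. The arrays were taken by strain, diet and week from their titles, which gave 60 of the 435 arrays of the series. The array of high-fat sample 50 at week 5 was left out because its Pearson correlation with the per-probe median of all arrays, 0.149, was below the limit of 0.15. The lowest correlation kept was 0.245, for low-fat sample 47 of week 5. High-fat samples 43 and 44 of week 5 held identical values on 9213 measured probes and were counted as 1 array, so 58 arrays entered the comparison.

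The high-fat groups were A/J mice with 8 arrays at week 5, 10 at week 6 and 10 at week 7, and the low-fat groups were A/J mice with 10 arrays at each of the same weeks. A/J is an inbred laboratory strain. The labels used here give no age, sex or genotype beyond the strain, and they do not say which arrays share a mouse, a cage or a hybridisation day. The p-values therefore rest on how far arrays of 1 group scatter, part of which may be technical, and a batch that followed diet within a week cannot be told apart from diet. Cy5 carried the liver RNA of each mouse on every array and Cy3 carried a pooled reference of 10 tissues of C57 mice, of which liver made up 26%. Each value is thus a ratio of liver over that pool. A log2 ratio of 0 is the typical probe of the array, because each array was centred on its median over the probes tested. Signal intensities were not used here, so the signal behind a ratio is unknown and the number of arrays limits the precision.

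The liver takes up dietary fatty acids, oxidises them, makes new ones from acetyl-CoA and stores or exports them as triglyceride. Stearoyl-CoA desaturase, encoded in liver mainly by Scd1, puts a double bond into saturated acyl chains and supplies the monounsaturated fatty acids found in stored triglyceride. It is known as a target of the insulin-driven factor SREBP-1c and of the sterol-sensing receptor LXR. Elongases of the ELOVL family lengthen the chains, FASN builds them, and the fatty-acid receptor PPARα drives genes of fatty acid oxidation such as Ehhadh, Acaa1a and Cyp4a14.

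The arrays did not measure all probes alike. The median number of measured probes was 10740.5 in high-fat arrays and 11979 in low-fat arrays at week 5, 9888 and 6828 at week 6, and 12682.5 and 13287.5 at week 7. The fewest were 2273, on a low-fat array of week 6, and a tested probe was measured on a median of 9 high-fat and 6 low-fat arrays at that week. The median standard deviation per probe was also widest there, 0.55 in high-fat and 0.67 in low-fat arrays, against 0.41 and 0.51 at week 5 and 0.44 and 0.36 at week 7. Week 6 stands apart in both respects, and its results are given below with and without the arrays concerned. Of 14711 probes with 1 gene symbol, 7490 had a value on 70% or more of the arrays and on 3 or more in each of the 6 groups, and these 7490 probes, of 7135 genes, were tested.

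**Figure D1:**
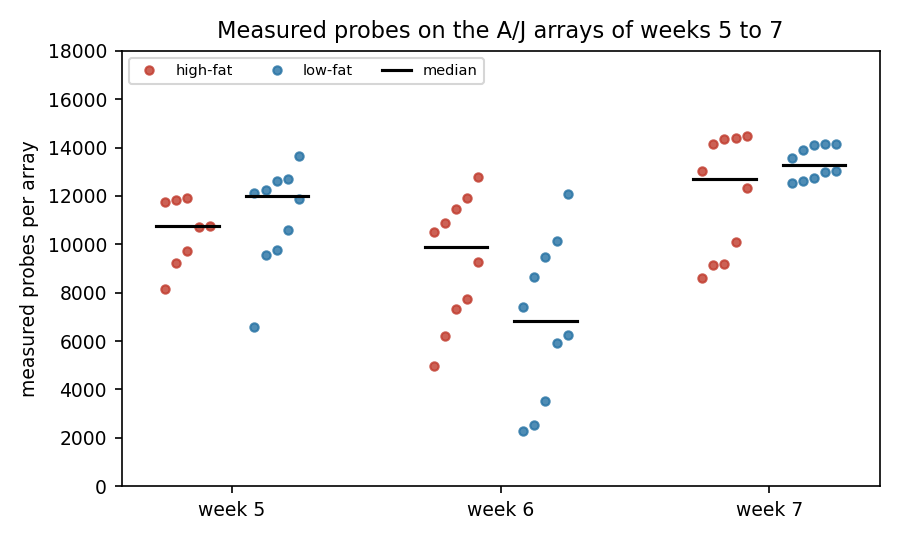
Measured probes per array (vertical axis, count) for the 58 A/J arrays, high-fat in red and low-fat in blue, by week. Each point is an array and the black line is the group median. The low-fat arrays of week 6 reach down to 2273 measured probes, and those of week 7 start at 12517.

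The labelled tissue was checked against cell type markers. Of 10 hepatocyte markers, 9 had a mean log2 ratio above 0 over the 58 arrays, with a median of 0.96. Apoa1, the main protein of high-density lipoprotein, had a mean log2 ratio of 2.29 and Alb, serum albumin, 1.14, while Fgb, a fibrinogen chain, was at -0.39. All 5 skeletal muscle markers were below 0, with a median of -1.70, in a reference that contains muscle. Markers of other tissues were mixed. Of 3 kidney markers 2 were above 0, with a median of 0.26. Of 3 adipose markers 1 was above 0 (median -0.70), and of 3 pancreas markers 1 (median -0.35).

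Over the 3 weeks, 2 of 7490 probes (0.0267%) differed between the diets at an adjusted p below 0.05 (limma with week as a block, Benjamini-Hochberg over all probes tested), each time with the higher ratios in the high-fat arrays. They were Scd1 and Hnrnpm, a component of the splicing machinery. No probe was called lower, and 442 probes (5.90%) had an unadjusted p below 0.05, of which 187 (2.50%) were higher and 255 (3.40%) lower in high-fat arrays. The same sign in 3 of 3 weeks was seen for 1507 probes (20.1%).

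**Figure D2:**
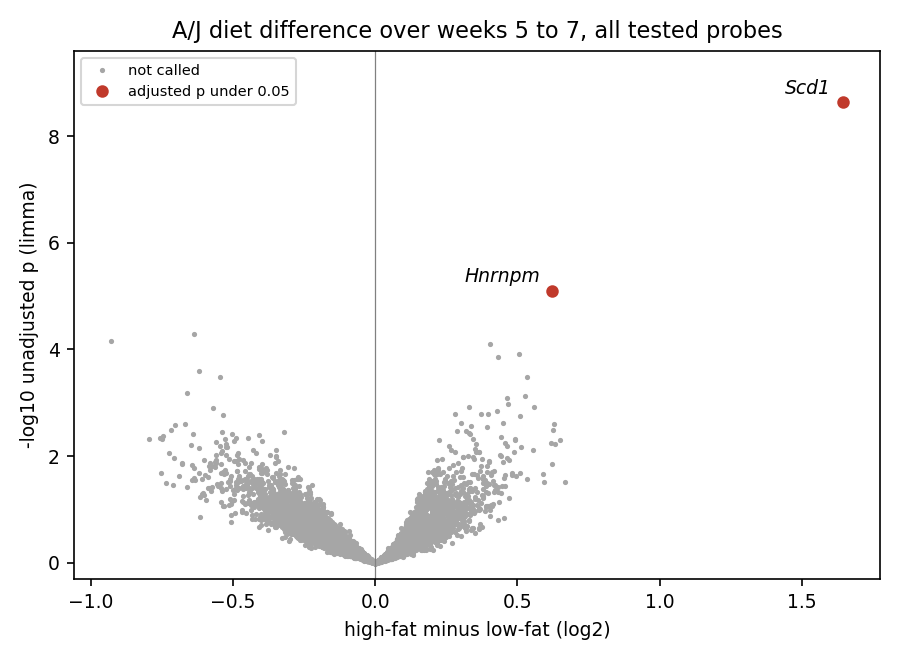
High-fat minus low-fat difference over weeks 5 to 7 (horizontal axis, log2) against the unadjusted limma p (vertical axis, negative log10) for the 7490 tested probes. Red points mark adjusted p below 0.05. Scd1 lies at 1.64, apart from the grey cloud of the other probes, and Hnrnpm, with the next smallest p, lies at 0.62.

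Of the probes tested, that of Scd1 had the largest difference over the weeks. At week 5 its centred log2 ratio ran from 0.09 through a median of 1.28 to 2.65 in 7 high-fat arrays, and from -1.90 through -0.63 to 0.14 in 9 low-fat arrays. Of the 7 high-fat arrays, 6 lay above every low-fat array, so the groups overlapped at a single high-fat array. At week 6 it ran from -0.44 through 1.58 to 2.83 in 10 high-fat arrays and from -1.91 through -0.69 to 0.22 in 6 low-fat arrays. Here 9 of 10 high-fat arrays exceeded all low-fat arrays, and sample 60, the exception, was the lowest by a wide gap. At week 7 it ran from -0.13 through 0.57 to 2.11 in 10 high-fat arrays and from -0.78 through 0.27 to 0.77 in 10 low-fat arrays, with 4 high-fat arrays above all low-fat ones.

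Averaged over the weeks, high-fat livers exceeded low-fat livers in Scd1 by 1.64 ± 0.23 on the log2 scale (SE, 52 arrays, limma adjusted p = 1.71e-05), a 3.13-fold difference with a 95% confidence interval of 1.19 to 2.10 in log2. The weekly differences were 2.23 ± 0.37 at week 5 (adjusted p = 0.000949), 2.42 ± 0.38 at week 6 (adjusted p = 0.000262) and 0.60 ± 0.33 at week 7 (adjusted p = 0.9998, limma with 6 group means). The low-fat arrays of week 7 were higher in Scd1 than those of the other weeks, with a mean of 0.20 against -0.78 at week 5 and -0.81 at week 6, while the high-fat means were 0.80 at week 7, 1.46 at week 5 and 1.61 at week 6. A limma F test of equal diet differences in the 3 weeks gave an adjusted p of 0.0577 for Scd1, which lay between 0.0435 and 0.205 under the other settings run for it, so the smaller difference at week 7 was past the threshold under some of them and not under others.

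The Scd1 call was kept in 71 of 73 settings and left-out arrays, of which 58 were near-equal fits with 1 array left out. It was lost without week 5, where the difference was 1.37 and the adjusted p 0.0838, and where each group was reduced to 1 mean, which leaves 3 weekly differences (1.75, adjusted p = 0.9997). Taking weeks singly, the week 5 call was kept in 9 of 11 settings. It was lost where arrays of consecutive sample numbers were averaged (2.14, limma adjusted p = 0.0504). It was also lost with the sample number as a block within weeks (2.04, limma adjusted p = 0.137).

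**Figure D3:**
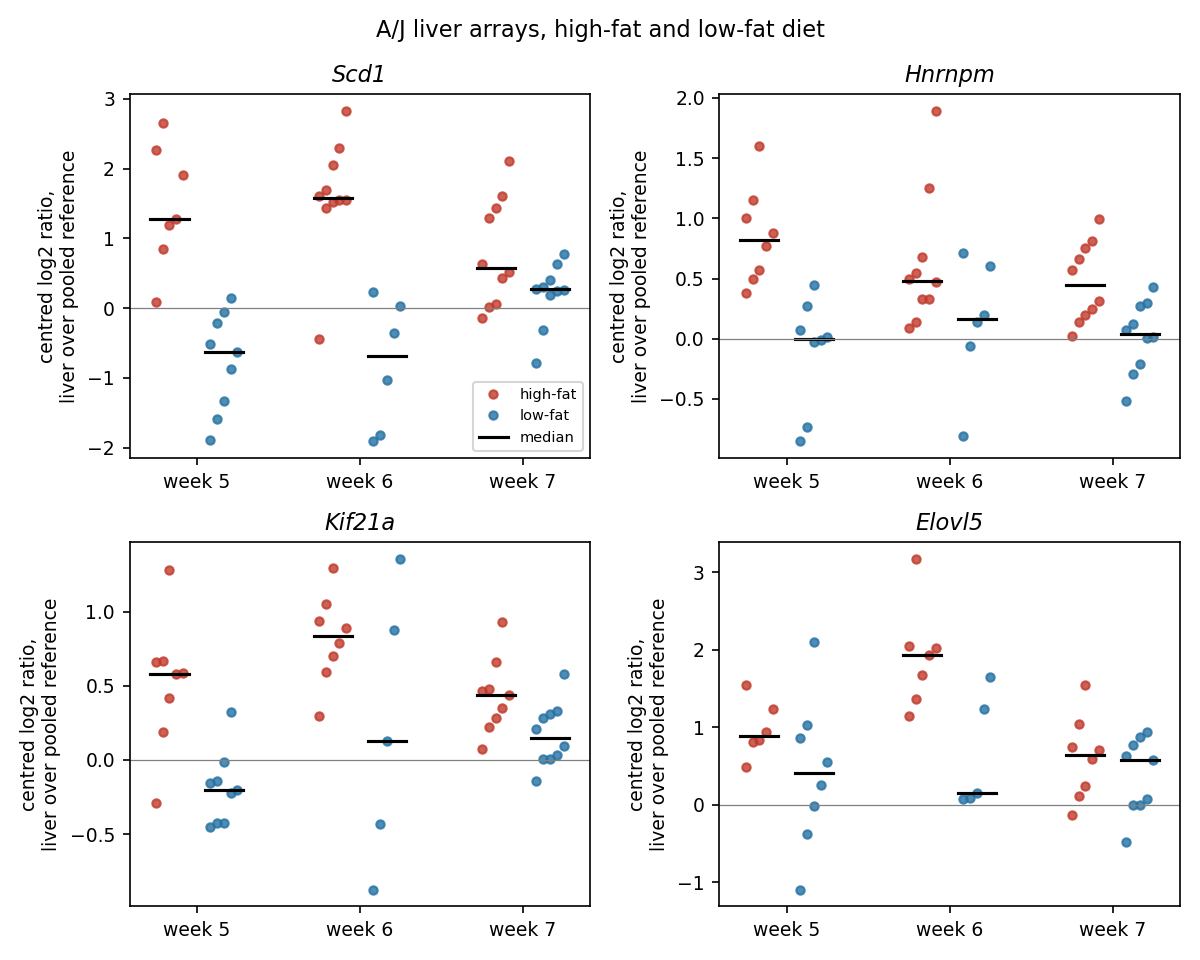
Centred log2 ratio of liver over the pooled reference (vertical axis) of Scd1, Hnrnpm, Kif21a and Elovl5 on each A/J array, high-fat in red left of low-fat in blue at weeks 5, 6 and 7. Each point is an array and the black line the median of the group. The Scd1 medians of the high-fat arrays are 1.28, 1.58 and 0.57 by week, above the low-fat medians of -0.63, -0.69 and 0.27.

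Hnrnpm encodes a nuclear RNA-binding protein that takes part in the choice of exons. At week 5 its log2 ratio ran from 0.38 through 0.82 to 1.60 in 8 high-fat arrays and from -0.85 through 0.00 to 0.44 in 8 low-fat arrays, with 7 of the 8 high-fat arrays above all low-fat ones. At weeks 6 and 7 the groups overlapped more, with high-fat medians of 0.48 and 0.44 against low-fat medians of 0.17 and 0.04. The difference was 0.96 ± 0.22 at week 5, 0.49 ± 0.23 at week 6 and 0.45 ± 0.20 at week 7 (SE), and 0.62 ± 0.13 over the weeks (SE, 52 arrays, limma adjusted p = 0.0297). None of the 3 weeks passed the threshold alone, with adjusted p-values of 0.263, 0.199 and 0.9998. The Hnrnpm call was kept in 55 of 73 settings and left-out arrays, of which 58 were fits with 1 array left out. It was lost without any 1 of 13 arrays, with a highest adjusted p of 0.0899. These were high-fat samples 42, 43, 47 and 49 of week 5 and 64, 65 and 69 of week 7, and low-fat samples 40 and 43 of week 5, 53 and 56 of week 6, and 64 and 66 of week 7. It was also lost without week 5 (0.46, adjusted p = 0.675), without week 7 (0.73, adjusted p = 0.448), with consecutive sample numbers averaged (adjusted p = 0.251) and with weekly means (adjusted p = 0.9997).

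Kif21a, a kinesin motor that moves along microtubules, missed the threshold. At week 5 its log2 ratio had medians of 0.58 in high-fat and -0.20 in low-fat arrays, at week 6 0.84 and 0.13, and at week 7 0.44 and 0.15, with overlapping groups in each week. The mean difference was 0.50 ± 0.12 (SE, 49 arrays, limma adjusted p = 0.149), and it passed after quantile normalization (0.57, adjusted p = 0.0125) and with array weights, which count noisier arrays less (0.49, adjusted p = 0.00447).

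The probes next in order of p were picked after their values were seen. Cdca8, a subunit of the chromosomal passenger complex of dividing cells, differed by -0.64 ± 0.14 and Arpc4, a subunit of the Arp2/3 complex that branches actin filaments, by -0.93 ± 0.21 (SE, limma adjusted p = 0.120 for each). Arpc4 had medians of -2.00 in 5 high-fat and -0.93 in 9 low-fat arrays at week 5, -0.57 and -0.47 at week 6, and -1.28 and -0.35 at week 7. Cdca8 had medians of -0.83 and -0.62, -0.60 and -0.26, and -1.02 and -0.37 in high-fat and low-fat arrays of weeks 5, 6 and 7, and 9 of 10 high-fat arrays of week 7 lay below every low-fat array of that week. The Ephrin receptor gene Epha8 differed by 0.43 ± 0.11 (adjusted p = 0.149) and 4930455D15Rik by 0.40 ± 0.10 (adjusted p = 0.120).

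The other measured genes of the desaturation and elongation list did not follow Scd1 past the threshold. Of its 15 genes, 6 were tested, 1 was called and 3 were positive, with a median difference of 0.03, against a median of -0.01 over all 7135 genes. Elovl5, which elongates polyunsaturated acyl chains, was the nearest to Scd1. Its medians were 0.88 in 6 high-fat and 0.41 in 8 low-fat arrays at week 5, 1.93 in 7 and 0.15 in 5 at week 6, and 0.64 in 8 and 0.58 in 9 at week 7. At week 6, 5 of 7 high-fat arrays exceeded every low-fat array, and the groups overlapped in every week. The difference was 0.62 ± 0.20 over the weeks (SE, 43 arrays, limma adjusted p = 0.694) and 1.27 ± 0.37 at week 6 (adjusted p = 0.0464). The week 6 call was lost after quantile normalization and with array weights or 1 weight for each group (group weights), with adjusted p-values of 0.0925, 0.154 and 0.364, and with the week fitted on its own arrays (adjusted p = 0.326). Hacd1, a dehydratase of the elongation cycle, had the lowest difference of the list, -0.19 ± 0.27.

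No tested member of the fatty acid synthesis list was called. Of 16 genes, 7 were tested and 4 were positive, with a median of 0.02. Fasn, the fatty acid synthase, had log2 ratios with medians of -0.13 in high-fat and 0.05 in low-fat arrays at week 5, 0.06 and -0.92 at week 6, and -0.53 and -0.48 at week 7. Its difference was 0.02 ± 0.17 (SE, limma adjusted p = 0.996), with weekly values of -0.31, 0.40 and -0.07. Acaca, acetyl-CoA carboxylase, was the highest at 0.19 ± 0.22 and Acss2, a cytosolic acetyl-CoA synthetase, the lowest at -0.12 ± 0.15.

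Genes of triglyceride handling also stayed below the threshold over the weeks. Of 8 tested genes of triglyceride synthesis and lipoprotein assembly, 6 were positive with a median of 0.08, the phosphatidate phosphatase genes Lpin2 and Lpin3 marking the ends at 0.23 ± 0.18 and -0.38 ± 0.21. Of 16 tested genes of lipid droplets and lipid uptake, 11 were positive with a median of 0.04. Lipe, hormone-sensitive lipase, was the highest at 0.32 ± 0.17 and Plin3, a droplet coat protein, the lowest at -0.10 ± 0.22. At week 6 alone 2 members of this list were called higher and 2 lower, where 243 of all 7490 probes (3.24%) were called. The higher ones were Lipe at 1.03 (limma adjusted p = 0.0249) and, named after its value was seen, the fatty acid transporter gene Slc27a2 at 1.23 (adjusted p = 0.0389). The lower ones were Plin3 at -1.26 (limma adjusted p = 0.0436) and, named in the same way, Plin5 at -1.70 (adjusted p = 0.0342). Plin5, a droplet coat protein of oxidative tissues, was measured at week 6 on only 4 high-fat and 3 low-fat arrays. All of these week 6 calls were lost with array or group weights and after quantile normalization. Fitting week 6 alone also ended them (limma adjusted p = 0.326 for Lipe, 0.313 for Slc27a2, 0.373 for Plin3 and 0.347 for Plin5).

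Of the 37 genes of fatty acid oxidation, 20 were tested, none was called and 9 were positive, with a median of -0.01 and weekly medians of -0.09, 0.29 and -0.18. Acaa1a, a peroxisomal thiolase, was the highest at 0.36 ± 0.13 (adjusted p = 0.781) and Cyp4a14, a fatty acid hydroxylase and a common readout of PPARα in mouse liver, the lowest at -0.47 ± 0.28 (adjusted p = 0.864). Cyp4a14 had medians of -1.48 in high-fat and -0.54 in low-fat arrays at week 5, -0.50 and 0.16 at week 6, and -0.93 and -0.05 at week 7, with overlapping groups each time. Ehhadh, the peroxisomal bifunctional enzyme, differed by 0.11 ± 0.16 and Acadvl, the mitochondrial very-long-chain acyl-CoA dehydrogenase, by 0.11 ± 0.14. In ketone body metabolism Bdh1 and Bdh2, dehydrogenases of hydroxybutyrate, were tested, and they differed by 0.26 ± 0.12 (adjusted p = 0.830) and 0.05 ± 0.15.

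In bile acid synthesis and sterol export 7 genes were tested, 5 were positive and none was called. Hsd3b7 was the highest at 0.23 ± 0.18 and Cyp8b1, the sterol hydroxylase that sets the share of cholic acid, the lowest at -0.24 ± 0.30. Of 12 tested genes of gluconeogenesis and glycolysis 8 were positive with a median of 0.04, with Khk, ketohexokinase, at 0.17 ± 0.19 and Pgam1, phosphoglycerate mutase, at -0.23 ± 0.24. Among 32 tested genes of xenobiotic metabolism 17 were positive with a median of 0.01. Nr1i3, the receptor CAR that drives drug metabolism, was the highest at 0.48 ± 0.20 (adjusted p = 0.830) and Ces1f, a liver carboxylesterase, the lowest at -0.57 ± 0.17 (adjusted p = 0.559).

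Besides Hnrnpm no splicing factor was called. Of 22 tested members 15 were positive with a median of 0.07, and the repressor of exon inclusion Ptbp1 was the lowest at -0.63 ± 0.28 (adjusted p = 0.830), with medians of -0.99 in high-fat and -0.88 in low-fat arrays at week 5, -1.05 and -0.56 at week 6, and -0.64 and -0.36 at week 7. Across the 38 lists examined, 33 had at least 5 tested members and 2 held a called member. Over the genes tested, 3321 of 7135 (46.5%) were positive.

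**Figure D4:**
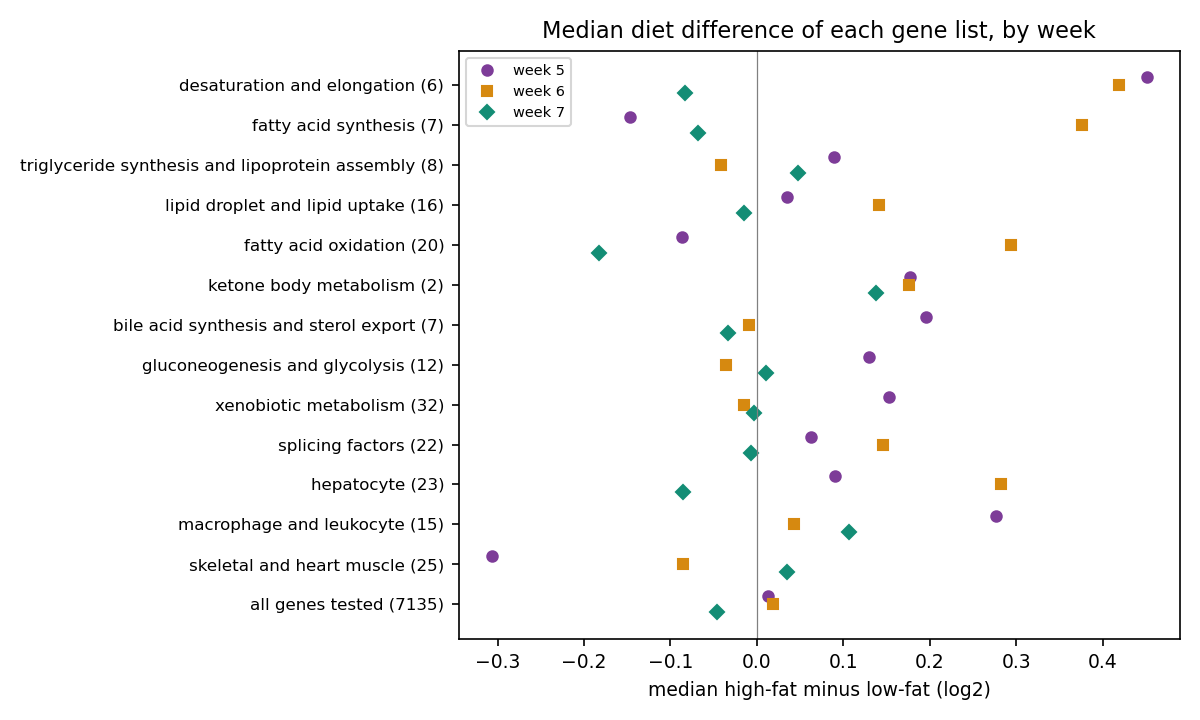
Median high-fat minus low-fat difference (horizontal axis, log2) of 13 gene lists and of all 7135 tested genes, by week, with the number of tested members in parentheses. The desaturation and elongation list lies at 0.45 and 0.42 at weeks 5 and 6 and at -0.08 at week 7.

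Lists of cell types were examined for members that moved with the diet. In whole liver, fewer cells of a type and less RNA per cell cannot be told apart. Of 23 tested hepatocyte genes 15 were positive, none was called and the median was 0.09, with Plg, plasminogen, at 0.29 ± 0.24 and Fga, a fibrinogen chain, at -0.09 ± 0.19. Alb differed by 0.06 ± 0.14 and Apoa1 by -0.08 ± 0.20. The mean log2 ratio over the 10 hepatocyte markers had a median of 0.92 in high-fat and 0.93 in low-fat arrays at week 5, 1.49 and 1.06 at week 6, and 0.81 and 0.74 at week 7, and the groups overlapped in each.

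Of 15 tested macrophage and leukocyte genes 11 were positive with a median of 0.10, from C1qb, a complement chain made by macrophages, at 0.45 ± 0.17 (adjusted p = 0.822) to Ptprc, the pan-leukocyte antigen CD45, at -0.51 ± 0.28 (adjusted p = 0.858). Of 25 tested genes of skeletal and heart muscle 10 were positive with a median of -0.04. Tnnt2, a cardiac troponin, was the highest at 0.33 ± 0.17 and Acta1, skeletal actin, the lowest at -0.69 ± 0.30 (adjusted p = 0.830). Acta1 was far below the reference in both diets, with medians of -2.72 in high-fat and -2.02 in low-fat arrays at week 5, -3.01 and -1.78 at week 6, and -2.04 and -2.09 at week 7.

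Taken singly, the weeks gave very different numbers of calls. At week 5 the diets differed at 1 probe (0.0134%), Scd1, at week 6 at 243 probes (3.24%) with 110 higher (1.47%) and 133 lower (1.78%), and at week 7 at none, where limma gave 252 probes (3.36%) at an unadjusted p below 0.05. The high-fat and low-fat groups did not overlap at 1 probe (0.0134%) at week 5, at 45 probes (0.601%) at week 6 and at none at week 7.

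The week 6 count changed widely with the fit, the normalization and the arrays kept. It was 3 with the week fitted on its own arrays, 3 with array weights, 13 with a weight for each group and 22 after quantile normalization, and it was 437 without centring, where 365 were higher and 72 lower, against 110 and 133 with it. Leaving out low-fat sample 52 gave 89, leaving out low-fat sample 50 gave 630, and leaving out the 3 low-fat arrays with under 4000 measured probes gave 155. Under the first 4 of these settings Scd1 stayed called at week 6, with adjusted p-values of 0.0389, 0.0478, 0.0279 and 0.00285, and so did Ubxn11. Whether the number of measured probes had a part in the week 6 differences was not tested.

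The equal-difference F test called 51 probes (0.681%), of which 48 were furthest from the other weeks at week 6 and 47 were also among the 243. This count was 1 with a weight for each group, 3 after quantile normalization, 99 with array weights, 3 without low-fat sample 53 and 295 without low-fat sample 50. The smallest p-values belonged to Sap30l, a histone deacetylase complex component, Ubxn11, Cfap157, a protein of cilia, and Rpf1, a ribosome biogenesis factor, each with an adjusted p of 0.0185. Sap30l had medians of -0.36 in high-fat and 1.34 in low-fat arrays at week 6, against 0.77 and 0.36 at week 5 and 0.16 and -0.02 at week 7. Rpf1 had medians of 0.28 in 7 high-fat and -1.26 in 4 low-fat arrays at week 6 with no overlap, while its differences were -0.47 ± 0.35 at week 5 and -0.10 ± 0.30 at week 7 (SE).

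Letmd1, a mitochondrial membrane protein, showed the same week dependence. Its difference was -1.87 ± 0.35 at week 6 (adjusted p = 0.00167), 0.17 ± 0.30 at week 5 and 0.12 ± 0.29 at week 7, and 6 of 7 high-fat arrays lay below all 6 low-fat arrays at week 6. Its week 6 call was lost with array weights (adjusted p = 0.105) and group weights (adjusted p = 0.0905). Sap30l, Cfap157 and Rpf1 lost theirs with the week fitted on its own arrays (adjusted p = 0.313, 0.278 and 0.278). Sap30l and Cfap157 also lost it with array weights (adjusted p = 0.0549 and 0.0548) and Rpf1 with group weights (adjusted p = 0.0703). Ubxn11 differed by 1.71 ± 0.31 at week 6 (adjusted p = 0.00129), by -0.67 ± 0.32 at week 5 and by 0.01 ± 0.31 at week 7. Their differences over the weeks, -0.39 ± 0.21 and 0.37 ± 0.22, were not called, and both turned sign without week 6, to 0.14 and -0.31.

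**Figure D5:**
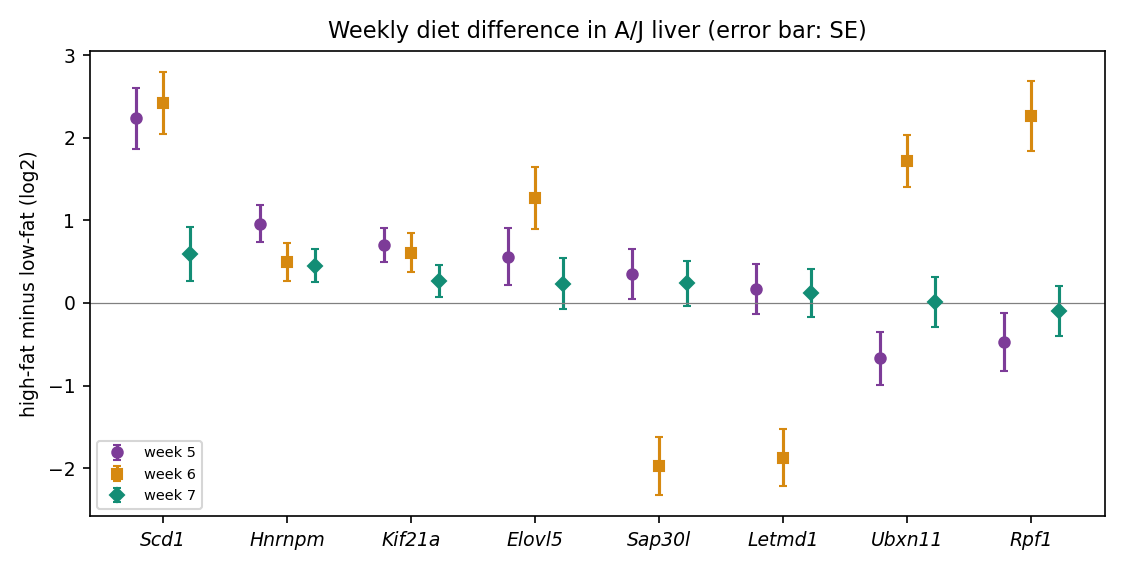
High-fat minus low-fat difference (vertical axis, log2) with its SE at weeks 5, 6 and 7 for Scd1, Hnrnpm, Kif21a, Elovl5, Sap30l, Letmd1, Ubxn11 and Rpf1. The first 4 genes are above 0 in every week, whereas Sap30l, Letmd1, Ubxn11 and Rpf1 stand off 0 mainly at week 6.

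The same diets were compared with C57 mice of weeks 5 to 7 (58 arrays), an inbred strain that is also the source of the reference pool. The diet difference of 1 of 6957 probes (0.0144%) differed between the strains, that of Eola1, which was -0.31 ± 0.25 in A/J and 1.35 ± 0.22 in C57 (limma adjusted p = 0.0155), and this call was lost after quantile normalization, with array weights and with weekly means. The diet difference of Scd1 was 1.75 ± 0.20 in A/J and 1.43 ± 0.20 in C57 in this fit, which takes the 3 weekly differences with equal weight. The difference between the strains was 0.33 ± 0.28 (SE, adjusted p = 0.730), and 0.17 with array weights (adjusted p = 0.896). Hnrnpm differed by 0.64 ± 0.14 in A/J and 0.08 ± 0.15 in C57, Kif21a by 0.53 ± 0.12 and 0.78 ± 0.12, and Elovl5 by 0.69 ± 0.19 and 0.57 ± 0.21, none of them past the threshold for a difference between strains (adjusted p = 0.372, 0.625 and 0.922). Cyp4a14 differed by -0.48 ± 0.31 in A/J and 0.97 ± 0.29 in C57, with a strain difference of -1.46 ± 0.42 (adjusted p = 0.268).

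Within A/J the diet difference of weeks 5 to 7 was set against those of earlier and later weeks. Against weeks 1 and 3 (39 arrays) 0 of 6831 probes passed in limma while 502 (7.35%) had an unadjusted p below 0.05, and against weeks 9 to 11 (58 arrays) 0 of 7301 probes, with 480 (6.57%). With probes measured on at least 50% of the arrays the first of these counts was 3, all lower. Scd1 differed between the diets by 1.76 ± 0.18 at weeks 5 to 7 and 0.71 ± 0.23 at weeks 1 and 3 (difference 1.04 ± 0.29, adjusted p = 0.345, and 0.67 after quantile normalization, adjusted p = 0.939), and by 1.75 ± 0.18 and 0.77 ± 0.17 at weeks 9 to 11 (difference 0.98 ± 0.25, adjusted p = 0.227). Hnrnpm differed by 0.24 ± 0.15 at weeks 1 and 3 and by -0.04 ± 0.13 at weeks 9 to 11, and Elovl5 by -0.26 ± 0.23 and 0.68 ± 0.18. The mean Scd1 difference was thus the larger at weeks 5 to 7 in value, but not past the threshold over all probes. At week 7 alone the Scd1 difference was 0.60 ± 0.33 (SE), lower in value than in both other periods, but by less than this SE. This sets a single week against means over several weeks and was not tested.

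The genes whose week-adjusted log2 ratios followed those of Scd1 most closely across the A/J arrays were listed as a description. They were Kif21a (Pearson r = 0.67 over 47 arrays), a probe of Fkbp11, a folding factor of the secretory pathway (0.62 over 47), the homeobox gene Nkx2-3 (0.61 over 52), Elovl5 (0.60 over 43) and the kinase gene Bmx (0.60 over 51). The points share arrays and the diet groups, so part of each r is the diet difference that the genes have in common. The probe of Fkbp11 listed here differed by 0.46 ± 0.19 and its other probe by -0.09 ± 0.18, so they disagree. Nkx2-3 differed by 0.47 ± 0.14 (adjusted p = 0.559) and Bmx by 0.39 ± 0.13 (adjusted p = 0.694).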

How the data were processed

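Liver RNA was compared with a pooled reference on 2-colour arrays. The authors deposited 1 linear ratio of liver over reference per probe and array, and image analysis, background correction and normalization are not given in the sources used here. The measured ratios of each array average 1, 42.4% of all cells are empty, and 0.523% of the measured ratios are at or below 0. The direction was read from the dyes in the labels and from hepatocyte markers. No genome build is used. Gene symbols come from the platform table, updated through Entrez identifiers.

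From the deposited ratios the log2 was taken with no pseudocount, ratios not above 0 were left out, and each array was centred. Limma 3.58.1 in R 4.3.3 tested high-fat minus low-fat with week as a block, and weekly differences and their equality in a fit of 6 group means, which share 1 spread per probe. The comparisons with C57 and with other weeks were separate fits, each with its own probe filter. The threshold was an adjusted p of 0.05. The code was tested on simulated data. With unequal group spreads the test of equal weekly differences called more unchanged probes than its threshold allows.

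Named genes are those called, 13 genes named whatever their p (Hadh was not tested), the highest and lowest members of each list described, the 4 smallest p-values past the threshold in the tests of differences, and the 5 genes most like Scd1. Cdca8, Arpc4, Epha8 and 4930455D15Rik, among the 12 smallest p-values, and Slc27a2 and Plin5 were named after their values were seen. The members, lists and rules were chosen with earlier results of these data known. Alternatives were other centring, quantile normalization, probe filters of 50% and 90%, a pseudocount of 0.1, array s50 kept, weekly means, averaged or blocked sample numbers, array weights and left-out arrays or weeks. Array weights in the weekly and between-group fits, a weight for each group, weeks fitted alone, the 3 arrays of under 4000 measured probes left out, and arrays left out in turn in the week 6 and F tests were chosen after seeing the data. Python 3.11.15 with matplotlib 3.10.9 drew the figures.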

Additional observations from a re-analysis of the deposited data

Results flagged for a closer look

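In 35 of 287 groups of arrays looked at for 49 named genes (12.2%), the highest or lowest array stood apart from the others of its group by Dixon's criterion, which chance meets in about 1 of 20 groups. For Scd1 this was high-fat sample 60 of week 6, at -0.44 against 1.44 for the next array of its group. Among genes of fatty acid synthesis and elongation, Fasn was at -3.57 in high-fat sample 54 of week 6, Acss2 at -3.26 in high-fat sample 42 of week 5 and Hacd1 at 2.43 in high-fat sample 56 of week 6.

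Among oxidation genes, Ehhadh was at -1.64 in high-fat sample 64 and at -1.81 in low-fat sample 63 of week 7, and at -1.29 in low-fat sample 46 of week 5. Acadvl was at 1.22 and Acaa1a at 1.33 in high-fat sample 49 of week 5, and Acaa1a also at -0.35 in high-fat sample 55 of week 6 and at -1.80 in low-fat sample 47 of week 5. Cyp4a14 was at 0.13 in high-fat sample 43 of week 5, the array that was deposited under 2 sample numbers.

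Among genes of lipid storage, Lipe was at -0.94 in high-fat sample 62 of week 7, Plin3 at -0.31 in high-fat sample 47 of week 5 and at -1.41 in low-fat sample 67 of week 7, and Lpin3 at -2.50 in low-fat sample 48 of week 5. Among genes of bile acids, sugars and drugs, Hsd3b7 was at -1.55 in high-fat sample 68 of week 7, Cyp8b1 at 2.21 in high-fat sample 56 of week 6 and at -1.72 in low-fat sample 61 of week 7, Khk at -0.86 in high-fat sample 46 of week 5, Pgam1 at 4.43 in low-fat sample 47 of week 5 and Nr1i3 at 1.75 in low-fat sample 42 of week 5.

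Among hepatocyte and macrophage genes, Alb was at -0.074 in high-fat sample 54 of week 6, Apoa1 at 4.53 in low-fat sample 47 and Plg at -1.26 in low-fat sample 48 of week 5, Fga at 2.63 in low-fat sample 57 of week 6, and C1qb at 0.93 in low-fat sample 56 of week 6 and at 0.45 in low-fat sample 67 of week 7. Of the remaining genes, Letmd1 was at -0.026 in high-fat sample 43 of week 5 and at -1.44 in low-fat sample 54 of week 6, Eola1 at -0.0075 in high-fat sample 48 and Cdca8 at -1.81 in high-fat sample 49 of week 5, Rpf1 at 2.95 in high-fat sample 55 of week 6, Sap30l at 1.07 in low-fat sample 48 of week 5, and Cfap157 at 0.38 in low-fat sample 69 of week 7. Low-fat sample 47 of week 5, which gave 3 of these values, is the array with the lowest correlation kept.

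The limma F test called the diet difference unequal between the weeks for Sap30l, Ubxn11, Cfap157 and Rpf1 (adjusted p = 0.0185 for each). Letmd1 (adjusted p = 0.0201) and Plg (adjusted p = 0.0385) were also called by this F test. Plg differed by 1.63 at week 6 against -0.32 at week 5 and -0.38 at week 7. Most calls of the F test were lost with group weights and after quantile normalization. On simulated data with unequal group spreads, the F test called more unchanged probes than its threshold allows. Whether the wider spread at week 6 had a part in the calls listed here was not tested. The week 6 difference of Plg lost its call with the week fitted on its own arrays (adjusted p = 0.310), with array weights (adjusted p = 0.0679) and with group weights (adjusted p = 0.137). Between A/J and C57 the diet difference of Eola1 was called unequal (limma adjusted p = 0.0155). That call was lost after quantile normalization, with array weights and with weekly means.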

How the results depend on the processing

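The replicate block, with the sample number as a block within weeks, gave 1 call over the weeks (Scd1), and ended the calls of Hnrnpm (0.63, adjusted p = 0.753) and of Scd1 at week 5 (2.04, adjusted p = 0.137). The labels do not say whether equal numbers pair arrays. Same-numbered arrays of the other diet had a median correlation of -0.05 over 26 pairs, 5 of them over 0.1. Other-numbered arrays of the other diet in the same week had a median of -0.004 over 254 pairs, 63 of them over 0.1. Only 3 of 52 arrays correlated best with their own number. Low correlations cannot exclude that same-numbered arrays shared a cage or a hybridisation day. The 2 calls over the weeks became 0 with probes measured on 90% of the arrays. There 3058 probes were tested, 148 of them at an unadjusted limma p below 0.05. Scd1 and Hnrnpm, each measured on 52 of the 58 arrays, were not among the probes tested, so this filter did not test their calls. The 2 calls became 1 with consecutive numbers averaged and 0 with weekly means (190 unadjusted). They became 4 with array weights and 4 with group weights, of which 2 and 2 were the same probes. With a week left out they became 0 to 3, and with an array left out 1 to 3. The 1 call of week 5, that of Scd1, became 0 with averaged numbers or the replicate block, and 5 with array weights. With the 90% filter no probe was called at week 5, and Scd1 was not tested. The 0 of week 7 became 1 with group weights. The 243 of week 6 became 437 without centring, 22 after quantile normalization, 129 with high-fat sample 50 kept, 1.0e+02 (36 higher and 68 lower) with the 90% filter, 122 with averaged numbers, 155 without the 3 low-fat arrays of under 4000 measured probes, 3 with array weights, 13 with group weights, 3 with the week fitted alone and 89 to 630 with an array left out. The 51 calls of unequal weekly differences became 3 after quantile normalization, 99 with array weights, 1 with group weights and 3 to 295 with an array left out. The 1 call between the strains became 3 without centring and 0 after quantile normalization, with weekly means or with array weights, and the 0 against weeks 1 and 3 became 3 with the 50% filter. Fewer probes tested is part of the 90% filter, and fewer samples part of weekly means and left-out arrays; for the other settings the cause was not tested. Some uncalled differences turned sign. Over the weeks these were Apoa1 without centring (0.0014) and with a week left out (-0.30 to 0.12), Alb after quantile normalization (-0.0016), with the 90% filter (-2.3e-05), with array weights (-0.040) and with a week left out (-0.054 to 0.13), Fasn with the 90% filter (-0.040), with a week left out (-0.18 to 0.16), without those 3 arrays (-0.015) and with group weights (-0.055), Ubxn11 with array weights (-0.019) and with a week left out (-0.31 to 0.84), and, with a week left out, Acadvl (-0.052 to 0.20), Letmd1 (-0.73 to 0.14) and Ehhadh (-0.015 to 0.20). At single weeks they were Ubxn11 at week 7 after quantile normalization (-0.055) and Letmd1 at week 5 with array weights (-0.080). The number of arrays, 3 to 10 per group and probe, limits the precision.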

Other observations

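Lists of other processes were described for A/J at weeks 5 to 7, with no member called over the weeks. The circadian clock list leaned to lower values on the high-fat diet, with 3 of 12 tested genes positive, against 46.5% of all tested genes. Its median difference was -0.17, against -0.01 over all genes, with weekly medians of -0.17, -0.04 and -0.23 at weeks 5, 6 and 7. None of its tested genes had an unadjusted limma p below 0.05 over the weeks. The stellate cell and matrix list had 2 of 15 tested genes positive, with a median of -0.07 and weekly medians of -0.04, -0.28 and 0.00. After quantile normalization that median was 0.00, whereas the clock list stayed at -0.15. The hour at which the livers were taken is not in the labels used here, and its part in the clock values was not tested.

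Over the weeks, protein synthesis and energy genes lay near the median of all genes. Of 47 tested respiratory chain and ATP synthase genes 27 were positive with a median of 0.02. Of 38 cytosolic ribosomal proteins 21 were positive with a median of 0.02, and of 28 proteasome genes 15 were positive with a median of 0.04. At weeks 5, 6 and 7 the respiratory chain medians were -0.02, 0.12 and 0.06, and the ribosomal medians -0.08, 0.22 and -0.05. Those of the proteasome were 0.04, 0.19 and -0.02, against 0.01, 0.02 and -0.05 over all genes. The interferon and antigen presentation list had 7 of 18 tested genes positive and a median of -0.03, and the acute phase list 6 of 13 and -0.02.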
